A study of Mus musculus with 20 samples.

Results

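The genes described here are 10 macrophage and complement genes of the mouse cochlea, taken by name from a table of 24411 genes. They are the C1q chains *C1qa*, *C1qb* and *C1qc*, the complement component *C3*, the receptors *Csf1r*, *Cx3cr1* and *Trem2*, the adaptor *Tyrobp*, and the markers *Aif1* and *Cd68*. All 10 were found in the deposited tables of counts. RNA was sequenced from microdissected sensory epithelium together with spiral ganglion neurons of C57BL/6N mice, with 4 mice pooled for each library. Mice carried either 1 or both copies of the *Bai1* tm2b allele, in which exons 3 and 4 of *Adgrb1* are deleted and a lacZ cassette remains. The heterozygotes (tm2b/+, labelled Het) were the controls, so every library carried the allele and no wild-type library was analysed here. The homozygotes (tm2b/tm2b, labelled Homo) lack the long isoform of BAI1, an adhesion receptor known for the uptake of dying cells and for synapse organisation, and keep a short isoform. At postnatal day 22 (P22) there were 3 Het and 3 Homo libraries in estimated counts. At P7 there were 3 Het and 3 Homo libraries in estimated counts (replicates 5 to 7) and 4 of each genotype (replicates 1 to 4) whose values behaved as TPM (transcript levels scaled for gene length and library total) rounded to whole numbers. The study ran P7 in separate batches, of 4 and 3 samples per genotype. The labels do not say which replicates formed each batch, so unit and batch may coincide between the P7 sets. Homozygous mice were littermates of the controls, and the animals of the study came from several breeding pairs. Which litters went into which pool is not given in the sources used here, so p-values measure only the spread between pools.

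Macrophages live in the spiral ganglion, in the lateral wall and along the nerve fibres of the cochlea. They depend on the receptor CSF1R for survival, sense the neuronal ligand fractalkine through CX3CR1, and signal through the surface receptor TREM2 and its partner TYROBP when they bind lipids or debris. In the nervous system macrophages and microglia are the main source of C1q, which starts the classical complement cascade, and the cascade meets at C3, whose fragments tag surfaces for uptake. In bulk tissue fewer cells of a type and less RNA per cell cannot be told apart.

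The libraries in counts held about 35726000 to 40350400 counts at P22 and 31108600 to 58807200 at P7. Levels are given in CPM, the usual count share of a library, after TMM scaling over these 12 libraries. *Adgrb1* was lower in all 3 P22 Homo libraries (100.2 to 105 CPM) than in all 3 Het libraries (152 to 167 CPM), and likewise at P7 in counts (21.6 to 31.2 against 32.1 to 56.4 CPM). The edgeR adjusted p was 0.000602 at P22 and 0.894 at P7, so the P7 difference did not pass. At P7 in counts 5.83% of all genes were wholly lower in Homo libraries. In rounded TPM the groups overlapped, at 7 to 12 TPM in Het and 9 to 12 TPM in Homo libraries, and a value per gene does not separate the isoforms. Markers of spiral ganglion neurons, Schwann cells and hair cells were present in every library. Summed at P22, they reached at least 14099 CPM for 9 neuron markers, 15744 CPM for 6 Schwann cell markers and 267 CPM for 8 hair cell markers. Central glia markers also reached 902 to 1832 CPM at P22.

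*C1qa*, *C1qb* and *C1qc* lie side by side on the minus strand of chromosome 4 (GRCm38, GENCODE), at 136895917 to 136898803, 136880129 to 136886187 and 136889804 to 136893065. *C3* (57203970 to 57228136), *Trem2* (48346401 to 48354147) and *Aif1* (35170991 to 35176068) are on chromosome 17, and *Cx3cr1* (119901616 to 120069879) is on chromosome 9. *Tyrobp* is on chromosome 7 (30413760 to 30417585) and *Cd68* on chromosome 11 (69664213 to 69666153). All 10 genes are protein coding. The exons of *Csf1r* overlap *Hmgxb3* on the opposite strand over 15.1% of their bases, and those of *Cx3cr1* overlap *Gm33858* over 1.73%. Whether the counting used strand is not given in the sources used here, so reads in these overlaps cannot be assigned.

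Macrophage identity genes are known targets of PU.1, an ETS factor. The sequences upstream of *C1qc*, of the C1q cluster, and of *Trem2*, the member called at P22 below, are shown because they hold a PU.1-type motif or its shorter core. The promoters come from RefSeq (GRCm38.p6), which had an entry for 7 of the 10 genes. Both stretches are printed 5′ to 3′ on the strand of the gene, and stop before the first base of the GENCODE gene. Capitals mark the match, which is on the opposite strand in both.
C1qc, chr4:136893066-136893164, minus strand: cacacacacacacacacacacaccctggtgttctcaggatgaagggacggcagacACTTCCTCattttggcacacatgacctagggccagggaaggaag
Trem2, chr17:48346151-48346400, plus strand: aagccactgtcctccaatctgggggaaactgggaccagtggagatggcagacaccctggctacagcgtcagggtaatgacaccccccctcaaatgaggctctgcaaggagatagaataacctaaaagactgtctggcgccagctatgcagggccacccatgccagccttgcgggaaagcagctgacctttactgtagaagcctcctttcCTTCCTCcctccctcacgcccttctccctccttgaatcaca

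The search covered both strands for GAGGAAGT, which occurs in 3.2% of 32851 mouse promoters of the same length (250 bases before and 50 after each start), and for GAGGAAG, which it contains and which occurs in 13.6%. It also covered the MAF site TGCTGAC (4.67% of promoters) and TATAAA (13.6%). *C1qc* held the long ETS form and *Trem2* the short one. *C3* held TATAAA within the bases after its annotated start. The promoters of *C1qb*, *Cd68*, *Aif1* and *Cx3cr1* held none of these letters.

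By median, the C1q chains were the most abundant of the 10 mRNAs per length. In the 8 P7 libraries in rounded TPM, *C1qa* had a median of 121 TPM (99 to 126), *C1qc* 100.5 TPM (85 to 113) and *C1qb* 92.5 TPM (70 to 95). *Tyrobp* followed at 88.5 TPM (58 to 114), and the ranges of these 4 neighbours overlapped one by one down the order. By mean, *C1qb* and *Tyrobp* were level, at 86.8 and 86.9 TPM. *Csf1r* was next at 49.0 TPM (45 to 59), overlapping the lowest *Tyrobp* library but no library of *Cx3cr1*, which had 27.0 TPM (19 to 30). *Cd68* (23.5 TPM), *Trem2* (17.0 TPM) and *Aif1* (17.0 TPM) overlapped their neighbours. *C3* was listed at 0 in 7 libraries and at 1 TPM in Homo 4, below every library of *Aif1*.

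At P22 all 10 genes had higher means in Homo than in Het libraries, and 1, *Trem2*, was called. A call required an adjusted p under 0.05, a log2 fold change above 0.5 in size and a standard error (SE) under 0.5, and 3.15% of the 15443 genes tested were called (1.74% as higher, 1.41% as lower). The median log2 fold change of the 10 genes was 0.36, against 0.01 over all genes, and 52.4% of all genes were above 0. Over all genes with exons under 1500 bases, as *C1qa*, *C1qb*, *Tyrobp* and *Cd68* have, the median was 0.13. *Trem2*, the lipid and debris receptor, stood at 4.20, 4.65 and 4.08 CPM in Het 1 to 3 and at 7.40, 6.63 and 6.56 CPM in Homo 1 to 3. Every Homo library was above every Het library. The rise was 1.60-fold, a log2 fold change of 0.68 (SE 0.14, edgeR adjusted p = 0.0128). Without Het 1 the size stayed at 0.66 and the call was lost (edgeR adjusted p = 0.0577).

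**Figure D1:**
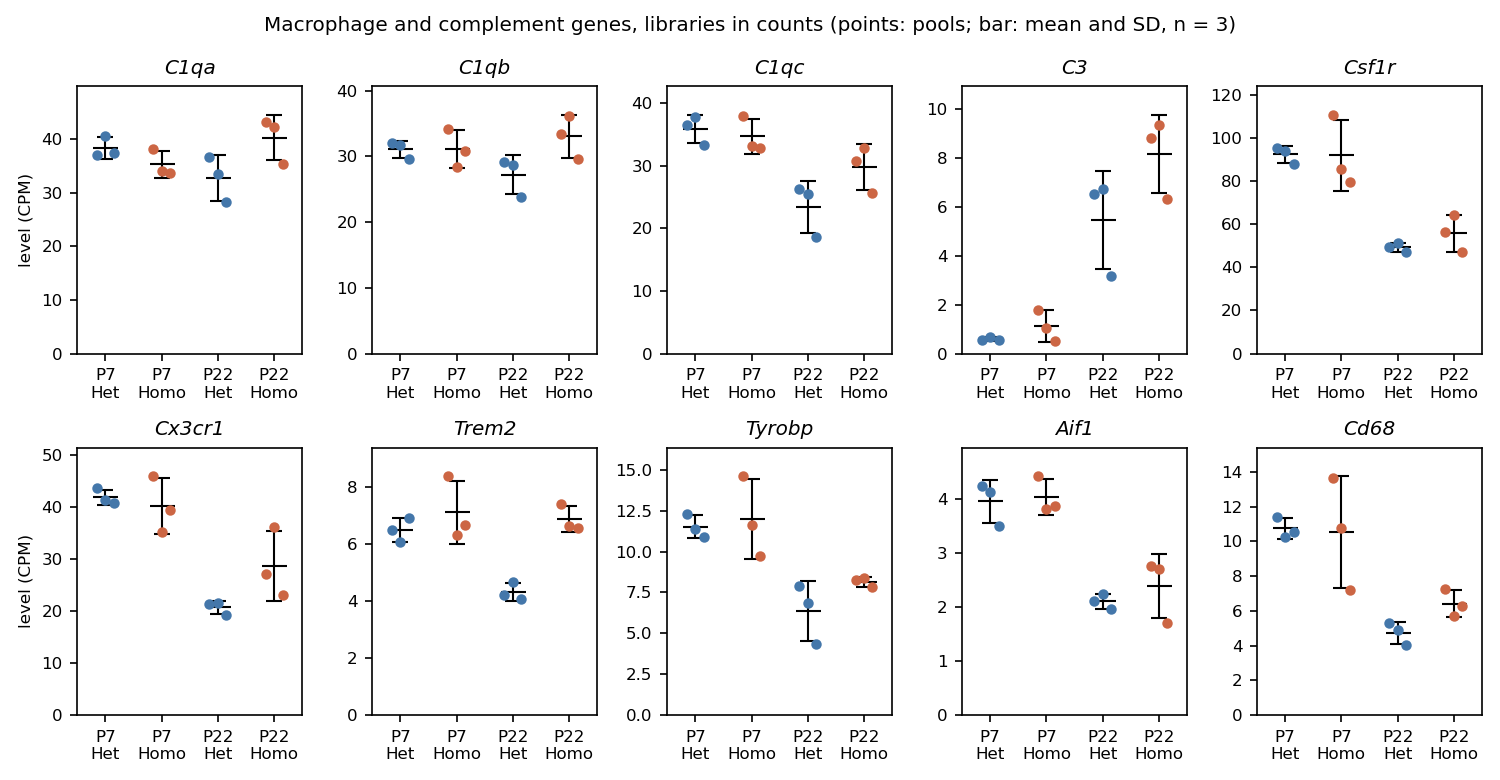
Level in CPM of each gene in the 12 libraries in counts, by age and genotype, on axes that start at 0. Points are pools of mice and bars the mean and SD of 3 pools; *Trem2* in P22 Homo libraries (6.56 to 7.40 CPM) lies above P22 Het libraries (4.08 to 4.65 CPM).

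*Cx3cr1*, the fractalkine receptor, stood at 21.5, 21.5 and 19.2 CPM in P22 Het and at 27.1, 36.2 and 23.0 CPM in P22 Homo libraries. The groups did not overlap, with the highest level in Homo 2. Its log2 fold change of 0.48 (SE 0.14, edgeR adjusted p = 0.0490) passed the p threshold and stayed under the limit of 0.5. Without Homo 3 it was called, at 0.62 (edgeR adjusted p = 0.0174). *Csf1r*, the CSF-1 and IL-34 receptor, had 49.3, 51.4 and 47.2 CPM in Het and 56.3, 64.3 and 47.1 CPM in Homo libraries, and Homo 3 was below all Het libraries. *Tyrobp*, the signalling adaptor of TREM2, had 7.89, 6.85 and 4.34 CPM in Het and 8.27, 8.36 and 7.81 CPM in Homo libraries, and the groups overlapped through Het 1. The log2 fold changes were 0.19 for *Csf1r* (SE 0.10, edgeR adjusted p = 0.238) and 0.37 for *Tyrobp* (SE 0.19, edgeR adjusted p = 0.240), so neither difference exceeded the spread between pools.

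Of the complement genes, none was called at P22. *C1qa* had 36.6, 33.5 and 28.2 CPM in Het and 43.3, 42.3 and 35.4 CPM in Homo libraries, overlapping only between Het 1 and Homo 3. *C1qb* had 29.2, 28.6 and 23.8 CPM against 33.4, 36.1 and 29.5 CPM, without overlap, and *C1qc* had 26.2, 25.5 and 18.7 CPM against 30.7, 32.8 and 25.7 CPM, with overlap. Their log2 fold changes were close to each other, at 0.31, 0.29 and 0.35, with edgeR adjusted p between 0.0851 and 0.106. *C3*, the point where the complement routes meet, had 6.54, 6.73 and 3.17 CPM in Het and 8.84, 9.34 and 6.34 CPM in Homo libraries. Its log2 fold change was 0.59 with a wider error (SE 0.26, edgeR adjusted p = 0.160), and the groups overlapped. It rested on 108 to 352 counts a library.

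*Cd68*, a lysosomal glycoprotein of phagocytes, had 5.28, 4.87 and 4.02 CPM in P22 Het and 7.27, 5.73 and 6.25 CPM in P22 Homo libraries, without overlap (log2 fold change 0.45, SE 0.16, edgeR adjusted p = 0.0929). *Aif1*, which encodes the actin-binding protein IBA1, had 2.12, 2.23 and 1.97 CPM against 2.77, 2.71 and 1.70 CPM (log2 fold change 0.19, SE 0.24, edgeR adjusted p = 0.641). Its lowest and highest libraries were both Homo. In all, 4 of the 10 genes had Homo libraries wholly above Het libraries, where 15% of all genes did so. At an adjusted p under 0.05 without the size limit 2 genes passed as higher, where 5.04% of all genes did.

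The related genes were read from 10 lists of 136 genes, of which 110 were tested at P22. Of these, 5 were called higher, 1 lower and 104 were not called, with 82 above 0 and a median log2 fold change of 0.23 against 0.01 over all genes. The list of macrophage identity genes had 26 of 28 genes above 0 (median 0.30), 1 of them called, *Lyz2*, the lysozyme of myeloid cells, at 25.1 ± 2.62 CPM in Het and 38 ± 2.48 CPM in Homo libraries (SD, n = 3; log2 fold change 0.61, edgeR adjusted p = 0.00389). All 10 microglia-enriched genes were above 0 (median 0.25), and 1 was called, *Sall1* (0.73, edgeR adjusted p = 0.00394), a transcription factor that cochlear cells other than macrophages also use. *Tmem119*, *P2ry12* and *Fcrls* of that list were at 0.11, 0.42 and 0.05 and did not pass.

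Among the complement lists at P22, *Cfp*, which encodes the alternative pathway stabiliser properdin, was called higher, at 5.03 ± 0.92 CPM in Het and 7.49 ± 0.93 CPM in Homo libraries (log2 fold change 0.58, edgeR adjusted p = 0.0471). *Cd55*, which encodes a membrane inhibitor of C3 convertases, was called lower, at 13.3 ± 0.81 against 8.86 ± 1.21 CPM (-0.58, edgeR adjusted p = 0.0162). None of the 7 genes of classical and lectin initiation and none of the 7 complement receptor genes tested was called. Of the activated phagocyte list, *Clec7a*, the beta-glucan receptor dectin-1, and *Lgals3*, the lectin galectin-3, were called higher, at 1.11 ± 0.25 against 2.10 ± 0.25 CPM and at 4.44 ± 1.48 against 8.81 ± 1.03 CPM (log2 fold changes 0.92 and 1.00, edgeR adjusted p = 0.0462 and 0.0143). Without the size limit, 1 of the 8 tested genes of that list passed an edgeR adjusted p under 0.05 as lower. The sum of the list was 2540 to 3241 CPM in Het and 2000 to 2289 CPM in Homo libraries. Yet 6 of the 8 tested genes were above 0, with a median log2 fold change of 0.39. Such a sum mostly follows its most abundant genes. In the P7 Het libraries in rounded TPM, *Spp1* alone had a mean of 710 TPM, where the list had 727.5 TPM. No gene was called of 13 ligand and signalling genes, 14 phagolysosome genes or 7 MHC class II genes, and 6 of the latter were below 0. Without the size limit, 3 phagolysosome genes passed as lower and 0 as higher, and 2 ligand and signalling genes passed as higher.

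Markers of other cells moved with genotype at P22. All 7 central glia markers were above 0 and 3 were called higher (*Mog*, *Mobp* and *Gfap*), and their sum was 902, 1046 and 911 CPM in Het and 1480, 1832 and 1161 CPM in Homo 1 to 3. The sum of 11 neutrophil markers was 8.64 to 22.6 CPM in Het libraries, and 71.6, 58.9 and 9.38 CPM in Homo 1 to 3, with *Mmp8* called higher. Hair cell markers were above 0 for 7 of 7 genes tested (3 called higher: *Ocm*, *Myo15* and *Otof*), and 8 of 9 neuron markers were below 0 (2 called lower: *Calb2* and *Nefh*). *Slc4a1* of the erythroid list and *Mki67* of the proliferation list were called higher. The erythroid list did not move as a whole, with 4 of 6 tested genes above 0 and a median log2 fold change of 0.04. Its sums overlapped, at 1409 to 2629 CPM in Het and 1713 to 2649 CPM in Homo libraries. None of the 6 monocyte markers was called, although all were above 0 (4.87 to 6.19 CPM summed in Het and 5.44 to 13.5 CPM in Homo libraries). Osteoclast, lymphocyte, dendritic cell and Schwann cell lists had no call, and no mast cell marker was tested. No marker of central glia or neutrophils was at 0 in all P22 libraries. Their part in the values of the 10 genes was not tested.

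At P7 in counts no gene was called, of the 10 or of all 16026 tested (0% called by edgeR, with 4.76% at an unadjusted p under 0.05, and 48 genes called by DESeq2). The log2 fold change was above 0 for 7 of the 10 genes (50.9% of all genes) with a median of 0.02, and for 9 of them it lay between -0.09 and 0.16. *Trem2* had 6.50, 6.07 and 6.90 CPM in Het 5 to 7 and 8.37, 6.30 and 6.66 CPM in Homo 5 to 7, with overlapping groups (log2 fold change 0.16, SE 0.16, edgeR adjusted p = 0.903). *C1qa* had 37.0, 40.7 and 37.5 CPM against 38.2, 34.1 and 33.7 CPM, also overlapping (-0.09, SE 0.09, edgeR adjusted p = 0.898). Groups overlapped for every one of the 10 genes, where 4.91% of all genes were wholly higher and 5.83% wholly lower in Homo libraries.

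*C3* had the widest spread at P7. It stood at 0.54, 0.69 and 0.54 CPM in Het and at 1.80, 1.05 and 0.51 CPM in Homo libraries, from 22 to 76 counts a library. Homo 5 was the highest and Homo 7 the lowest of the 6 libraries. Its log2 fold change of 0.94 had an SE of 0.47 (edgeR adjusted p = 0.894). Homo 5 was also above the mean of its group for 10 of 10 genes and Homo 7 below it for 10 of 10. *Csf1r* showed this range, at 111, 85.7 and 79.7 CPM in Homo 5 to 7 beside 95.6, 93.9 and 88.1 CPM in Het libraries. Neutrophil markers summed to 204, 61.3 and 37.3 CPM in Homo 5 to 7 and to 77.7 to 145 CPM in Het libraries. Osteoclast markers, of cells that also express *Csf1r*, summed to 509, 259 and 154 CPM in Homo 5 to 7 and to 308 to 492 CPM in Het libraries. *Mmp9* is in both lists, so these sums share a gene. The part of either cell type was not tested.

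In the P7 libraries in rounded TPM, 9 of the 10 genes reached the mean of 5 TPM required for a test and none was called, where limma called 0.767% of 11740 genes (0.596% as higher, 0.17% as lower). Values were scaled by TMM, since the median of all genes was 0.12 higher in Homo than in Het libraries on the log2(TPM + 1) scale as deposited, and 0.01 after scaling. On the scaled values 8 of the 9 genes were below 0 (48.6% of all genes were), with a median of -0.33. An adjusted p under 0.05 as lower, without the size limit, was reached by 3 genes, *C1qa*, *C1qb* and *Trem2*, and by 4.06% of all genes. Without the scaling none of the 9 genes passed the p threshold, and relative to the median of all genes their differences moved by less than 0.01.

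Levels per library and overlaps are of the TPM as deposited, while log2 fold changes are of the scaled values. Per library, *C1qa* had 122, 120, 125 and 126 TPM in Het 1 to 4 and 122, 99.0, 101 and 104 TPM in Homo 1 to 4. Homo 1 equalled Het 1, and the other Homo libraries were below all Het libraries. The log2 fold change was -0.33 (SE 0.08, limma adjusted p = 0.0460). *C1qb* had 93, 92, 95 and 93 TPM against 94, 70, 75 and 82 TPM, with Homo 1 within the Het range (-0.34, SE 0.09, limma adjusted p = 0.0479). *Trem2* had 17, 17, 17 and 18 TPM against 14, 14, 12 and 18 TPM, with Homo 4 at the highest Het value (-0.36, SE 0.10, limma adjusted p = 0.04997). *Tyrobp* ranged from 58 to 114 TPM within the Homo group and from 87 to 101 TPM within the Het group (-0.33, SE 0.18, limma adjusted p = 0.213).

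*Aif1* had the largest difference of the 9 genes, at 17, 18, 17 and 17 TPM in Het and 17, 12, 10 and 16 TPM in Homo libraries, and Homo 1 was within the Het range (-0.45, SE 0.13, limma adjusted p = 0.0590). *C1qc* was at -0.28, *Cx3cr1* at -0.27, *Csf1r* at -0.09 and *Cd68* at 0.01, with limma adjusted p from 0.0791 to 0.971. All 9 pairs of groups overlapped in the TPM as deposited, where 2.62% of all genes were wholly lower in Homo libraries. Overlap after scaling was not computed. Without Homo 1 *Aif1* (-0.56, limma adjusted p = 0.0163) and *Tyrobp* (-0.51, limma adjusted p = 0.0235) were called lower.

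Differences in this set moved with gene length, with a Spearman rho of 0.50 across 11324 genes (a description, since genes share the libraries) and medians of -0.23 for genes under 1500 bases and 0.08 for genes over 4000. The same medians at P22 were 0.13 and -0.02. The exons of *C1qa*, *C1qb* and *Tyrobp* span 1040, 1088 and 667 bases, and those of *Trem2* 4946. With the length trend removed, an alternative chosen after seeing the data, *C1qa* was at -0.11, *C1qb* at -0.12, *Tyrobp* at -0.07 and *Trem2* at -0.39, and no limma adjusted p of the 9 genes was under 0.05. The sum of central glia markers was 490 to 718 TPM in Het and 453 to 562 TPM in Homo libraries, with 6 of 6 tested markers below 0 and 2 called lower (*Mobp* and *Mog*). In the same set *Hbb-bs* of the erythroid list was called lower, and *Otof* of the hair cell list higher. Their part in these values was not tested.

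**Figure D2:**
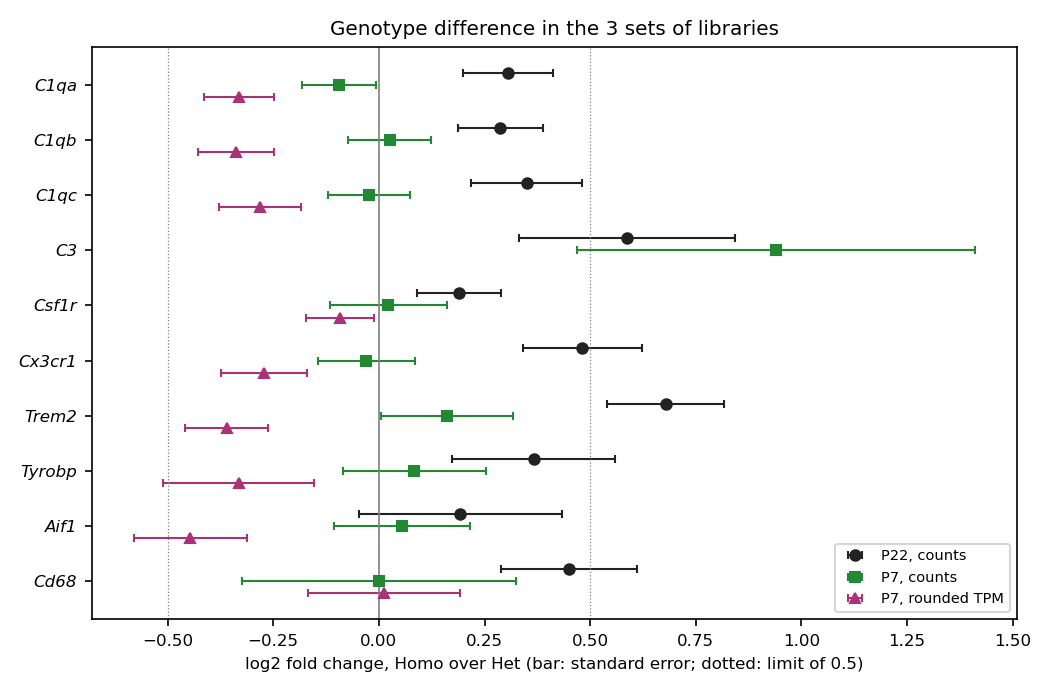
Log2 fold change of Homo over Het libraries (x axis) with its standard error for each gene in the 3 sets of libraries; dotted lines mark the size limit of 0.5. All 10 genes are above 0 at P22, 9 of 10 lie between -0.09 and 0.16 at P7 in counts, and 8 of 9 are below 0 in rounded TPM, where *C3* was not tested.

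**Figure D3:**
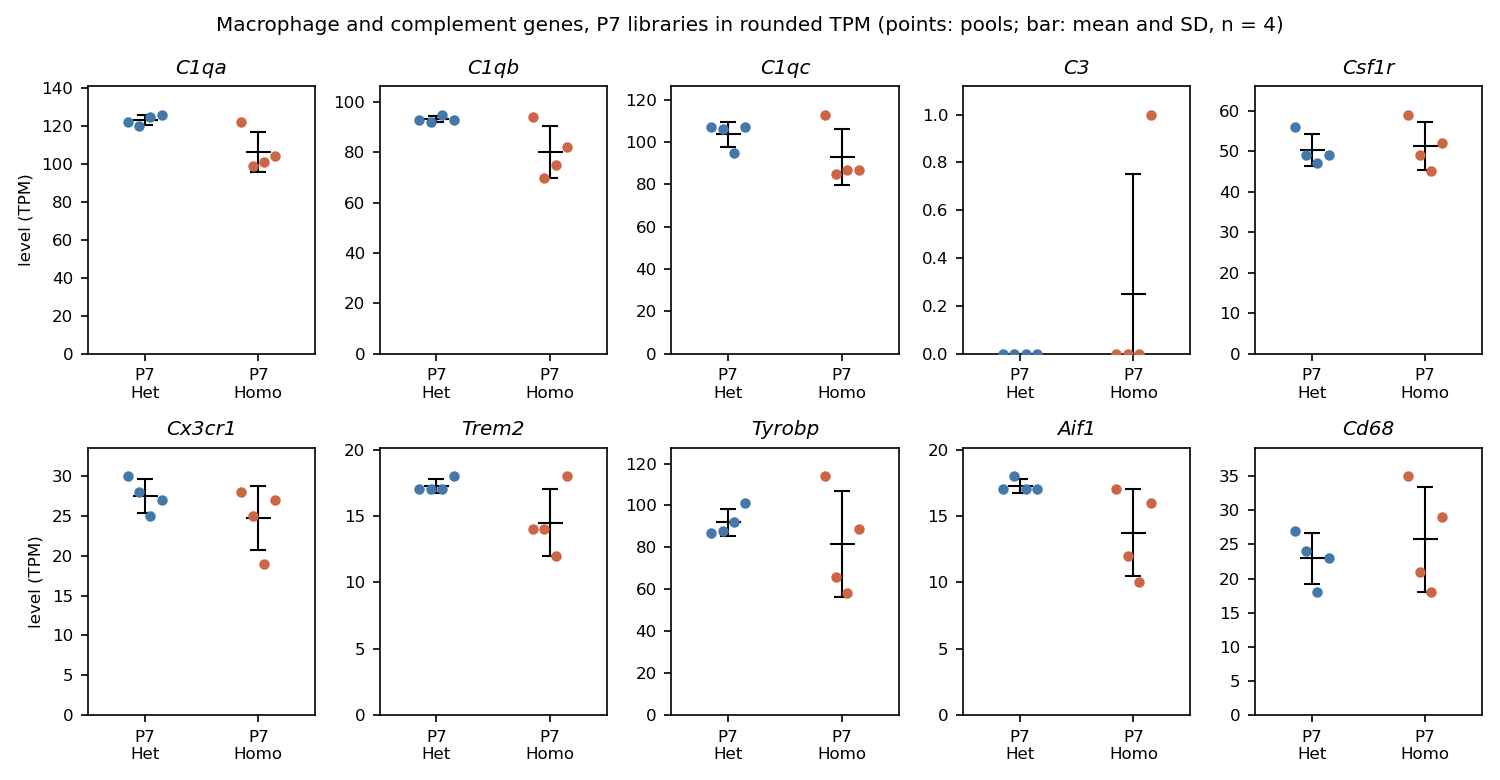
Level in rounded TPM of each gene in the 8 P7 libraries whose values are TPM, by genotype, with the mean and SD of 4 pools. The Homo libraries of *C1qa* spread from 99.0 to 122 TPM and the Het libraries from 120 to 126 TPM.

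In the lists of related genes, none of 115 genes tested was called at P7 in counts by edgeR, and 1 of 71 was called higher in rounded TPM by limma. The 23 macrophage identity genes tested in rounded TPM had 20 below 0 and a median of -0.22, and 3 reached an adjusted p under 0.05 as lower (*Ms4a7*, *Ctss* and *Ly86*). In counts, 22 of 28 were above 0 with a median of 0.05. The sum of osteoclast markers was highest in Homo 1 of the rounded TPM set, at 1027 TPM, and ran from 304 to 574 TPM in Het libraries.

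The genotype differences at P22 and at P7 were compared directly within the 12 libraries in counts. None of the 10 genes passed an adjusted p of 0.05, where 0.0306% of 16314 genes did. The difference was above 0 for 9 of 10 genes, with *C3* at -0.31 and a median of 0.35 against 0.02 over all genes. It was 0.54 for *Trem2* (SE 0.19, edgeR adjusted p = 0.353), 0.53 for *Cx3cr1* (SE 0.20, edgeR adjusted p = 0.384) and 0.42 for *C1qa* (SE 0.15, edgeR adjusted p = 0.353). These 3 had an unadjusted p under 0.05, as 10.2% of all genes did. A genotype change at P22 that differs from that at P7 was therefore not shown for any of the 10.

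Between P7 and P22 the 10 genes divided. *C3* rose 8.20-fold, 5 genes fell (*Csf1r*, *Cx3cr1*, *Tyrobp*, *Aif1* and *Cd68*), and the C1q chains and *Trem2* were not called. Of 16314 genes tested over 6 libraries an age, 54.6% were called (25.9% higher, 28.7% lower), so 6 of 10 is near the share of all genes. Each age comes from a table of its own and P22 is labelled as a batch of its own, so age and table cannot be told apart. *C3* ran from 0.51 to 1.80 CPM at P7 (median 0.62) and from 3.17 to 9.34 CPM at P22 (median 6.63), with no overlap. Its log2 fold change was 3.03 (SE 0.29, edgeR adjusted p = 5.1e-07), and 30.6% of all genes had all P22 libraries above all P7 libraries.

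The receptors *Csf1r* and *Cx3cr1* and the adaptor *Tyrobp* fell by similar amounts. *Csf1r* ran from 79.7 to 111 CPM at P7 (median 91.0) and from 47.1 to 64.3 CPM at P22 (median 50.3), with no overlap, as for 32% of all genes (log2 fold change -0.81, SE 0.09, edgeR adjusted p = 2.1e-06). *Cx3cr1* ran from 35.3 to 46.0 CPM (median 41.0) and from 19.2 to 36.2 CPM (median 22.3), and overlapped through Homo 2 at P22 (-0.75, SE 0.10, edgeR adjusted p = 1.6e-05). *Tyrobp* ran from 9.74 to 14.6 CPM (median 11.5) and from 4.34 to 8.36 CPM (median 7.85), with no overlap (-0.71, SE 0.14, edgeR adjusted p = 0.000370). *Trem2*, in contrast, was at 6.07 to 8.37 CPM (median 6.58) and 4.08 to 7.40 CPM (median 5.61), with P22 Homo libraries inside the P7 range and P22 Het libraries below it. Its log2 fold change of -0.32 (SE 0.09, edgeR adjusted p = 0.00757) was under the size limit, and in Het libraries alone it was called, at -0.55 (edgeR adjusted p = 0.00376).

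The markers *Cd68* and *Aif1* also fell. *Cd68* ran from 7.21 to 13.6 CPM at P7 (median 10.7) and from 4.02 to 7.27 CPM at P22 (median 5.50), overlapping through P7 Homo 7 (log2 fold change -0.95, SE 0.14, edgeR adjusted p = 4.0e-05). *Aif1* ran from 3.50 to 4.42 CPM (median 4.01) and from 1.70 to 2.77 CPM (median 2.17), with no overlap (-0.83, SE 0.14, edgeR adjusted p = 0.000101). Counts of *Aif1* were 61 to 102 a library at P22.

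*C1qa* and *C1qb* stayed near their P7 levels under TMM. *C1qa* ran from 33.7 to 40.7 CPM at P7 (median 37.2) and from 28.2 to 43.3 CPM at P22 (median 36.0), a log2 fold change of -0.02 (SE 0.07, edgeR adjusted p = 0.828). *C1qb* was at -0.05 (SE 0.07, edgeR adjusted p = 0.513). *C1qc* was lower at P22 by 0.42 (log2 fold change -0.42, SE 0.09, edgeR adjusted p = 0.000946), with libraries of 32.9 to 38 CPM at P7 and 18.7 to 32.8 CPM at P22 that did not overlap, and stayed under the size limit. Scaling to total counts without TMM moved the median of all genes from -0.05 to -0.34 and the share of higher calls from 47.5% to 30.8%. Under it *C1qa* and *C1qb* were at -0.31 and -0.34, *C1qc* and *Trem2* were called lower, and the calls of the 5 genes that fell and of *C3* held. Relative to the median of all genes, *C1qa* was at 0.03 under both scalings.

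Ratios within a library do not depend on its scaling. *C1qc* counts per *C1qa* count were 0.96 ± 0.04 at P7 and 0.73 ± 0.04 at P22 (SD, n = 6), and *C1qa* counts per *Csf1r* count were 0.40 ± 0.03 and 0.70 ± 0.07. *C3* made up 0.81 ± 0.44% of the counts of the 4 complement genes at P7 and 6.65 ± 1.26% at P22. In each of these 3 measures the ages did not overlap, with an exact 2-sided permutation p of 0.0022, the smallest that 6 against 6 libraries can give (0.0036 after Benjamini-Hochberg adjustment over 5 ratios, chosen after their values were seen). Because of that choice the p-values of the ratios are a description only. The share of other gene ratios that separate the ages was not computed. *Trem2* per *Tyrobp* was 0.58 ± 0.06 and 0.78 ± 0.15 (exact permutation p = 0.022, adjusted 0.027). *Cx3cr1* per *Csf1r* was 0.45 ± 0.03 and 0.47 ± 0.06 (exact permutation p = 0.53, adjusted 0.53). At P22, *Cx3cr1* per *Csf1r* was 0.41 to 0.44 in Het and 0.48 to 0.56 in Homo libraries, the only one of the 5 ratios whose genotypes did not overlap, with an exact permutation p of 0.10, the smallest that 3 against 3 can give.

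C1q protein joins its A, B and C chains in equal numbers. At P22 the share of *C1qa* among the counts of the 3 chains was 38 to 40.3%, of *C1qb* 31.1 to 33.6% and of *C1qc* 26.4 to 29.5%. At P7 in counts the shares were 34.6 to 37.3%, 28.8 to 31.6% and 33.2 to 34.7%. These are shares of counts and carry the chains' lengths. Shares of TPM in the other P7 libraries, which are per length, were 37.1 to 39.7%, 27.6 to 30.2% and 30.2 to 34.3%. Within each set the libraries differed by a few percentage points.

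**Figure D4:**
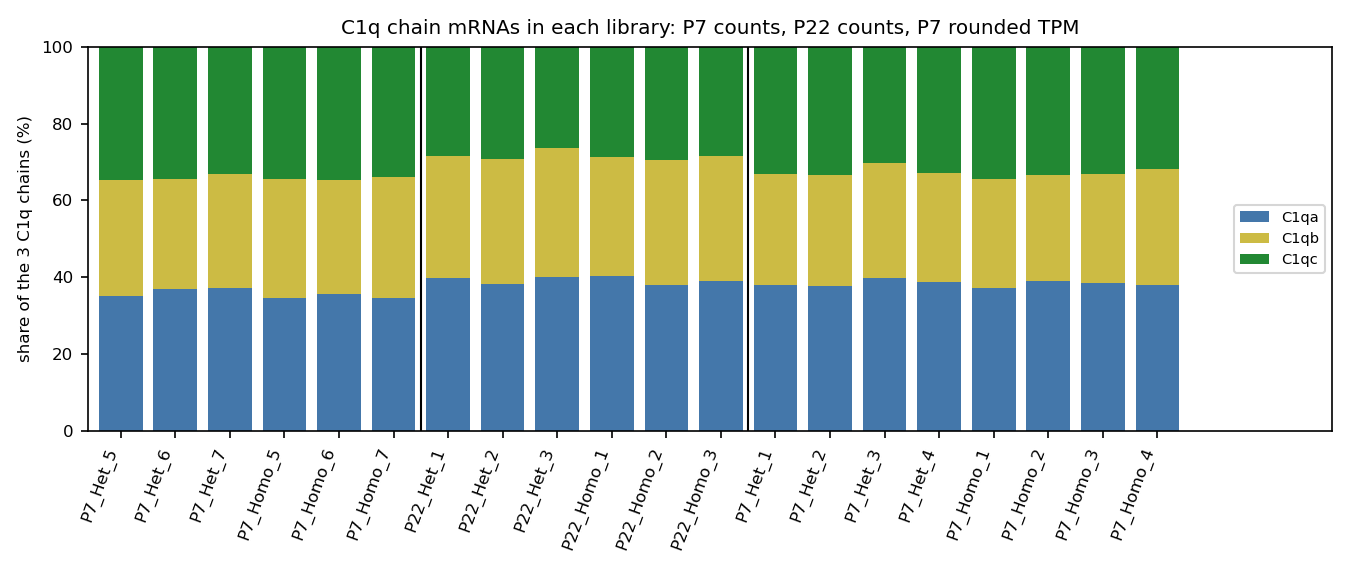
Share in percent of each C1q chain among the 3 chains (stacked bars) in each library, in counts at P7 and P22 and in rounded TPM at P7. The *C1qc* share of counts is 33.2 to 34.7% at P7 and 26.4 to 29.5% at P22.

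Over the 10 lists of related genes, 117 were tested between ages, with 30 called higher, 55 lower and 32 not called (median -0.47, against -0.05 over all genes). Of the 28 macrophage identity genes, 16 fell, 4 rose and 8 were not called. *Lyve1*, the hyaluronan receptor of tissue-resident macrophages, went from 8.64 ± 1.76 to 1.76 ± 0.46 CPM (SD, n = 6; log2 fold change -2.30, edgeR adjusted p = 9.8e-08), and *Pf4*, a chemokine of platelets and resident macrophages, from 13.9 ± 1.97 to 3.10 ± 0.88 CPM (-2.20, edgeR adjusted p = 3.7e-09). Among the risers was *Cd52*, a leukocyte surface protein (1.07). Of the 10 microglia-enriched genes 8 fell, most of all *Sall1* (-1.75) and the Fc receptor-like gene *Fcrls* (-1.43), 1 rose and 1 was not called.

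Complement genes other than the members moved in both directions with age. *C4b*, which C1q-bound proteases cleave to form the C3 convertase, rose from 11.2 ± 2.99 to 49.2 ± 9.84 CPM (log2 fold change 2.13, edgeR adjusted p = 8.6e-08), the only riser of 10 initiation genes, of which 7 fell, most of all *Fcna* (-2.68) and *C1s2* (-1.82), both under 2 CPM at P7. Of 4 alternative and terminal genes, *C7* rose (1.53, from 0.26 ± 0.19 to 0.71 ± 0.23 CPM), and *Cfb*, the alternative pathway protease (-1.92), and *Cfp* (-0.63) fell. All 13 regulators tested were called, 7 higher and 6 lower. *Csmd1* and *Susd4*, membrane regulators that neurons express, rose by 2.91 and 2.52, and *Cfi*, the protease that inactivates C3b, and *Cd46* fell by 2.17 and 1.19. *Cd46* and *Cfb* were low, with means of 0.25 and 1 TPM in each genotype of the P7 libraries in rounded TPM. Of 8 receptor genes 3 fell, among them *C3ar1* (-1.01), the C3a receptor, and *Itgam* (-0.55), a chain of complement receptor 3.

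Ligands and signalling parts of the member receptors divided as well. *Il34*, a CSF1R ligand of neurons and epithelia, rose from 7.01 ± 1.58 to 19.1 ± 2.80 CPM (log2 fold change 1.47, edgeR adjusted p = 8.9e-08), and *Cx3cl1*, which encodes fractalkine, from 37.5 ± 2.26 to 83.3 ± 5.02 CPM (1.15, edgeR adjusted p = 1.0e-09). Of the 13 genes tested 8 fell, most of all *Syk* (-1.40), the kinase downstream of TYROBP, and the sialic acid receptor gene *Cd33* (-1.37). *Csf1*, the other CSF1R ligand, was at -0.22 (edgeR adjusted p = 0.180). Of 7 MHC class II genes 5 rose, with *Cd74*, the invariant chain, at 1.29 and *H2-DMa*, a peptide loading subunit, at 1.19. The phagolysosome list held 4 risers, led by the proteases *Ctsb* (1.01) and *Ctsd* (0.65), and 4 fallers, led by *Gusb* (-1.35) and *Grn* (-0.76). In the activated phagocyte list *Spp1*, the secreted phosphoprotein osteopontin, also made by bone cells and neurons, rose by 3.66 and *Lgals3* by 1.89, and *Nos2* fell by 0.87.

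**Figure D5:**
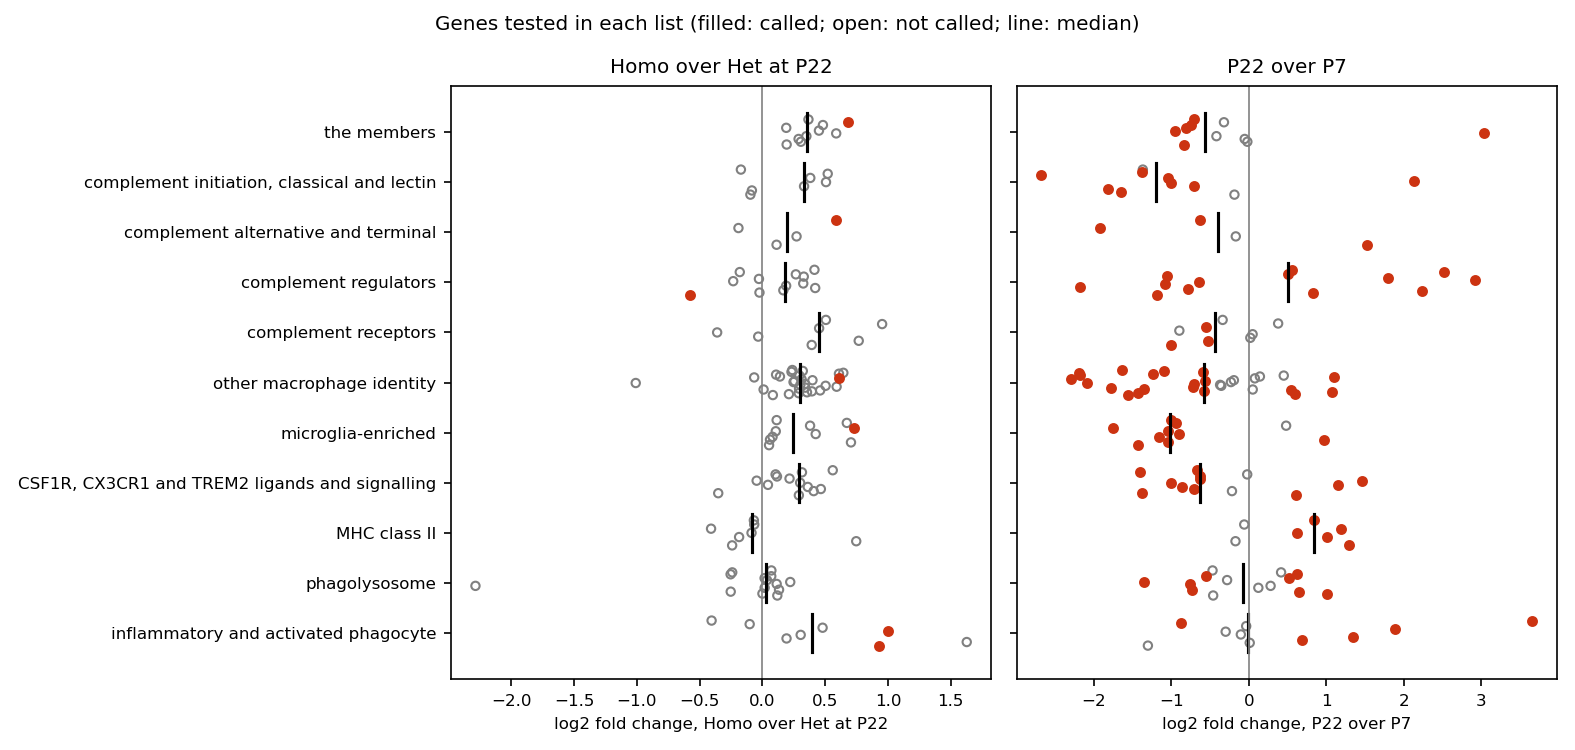
Log2 fold change of each tested gene in the 10 members and in the 10 lists of related genes, for Homo over Het at P22 (left) and P22 over P7 (right). Filled points are called, open points are not, and lines are medians; the macrophage identity list has 26 of 28 genes above 0 on the left and 16 genes called lower on the right.

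Other cells changed with age too. The osteoclast markers summed to 154 to 509 CPM at P7 and 27.9 to 38.6 CPM at P22, the proliferation markers to 64.5 to 144 and 5.34 to 18.2 CPM, and the neuron markers to 1288 to 3152 and 14099 to 21597 CPM. *Ocstamp* and *Calcr* of the 10 osteoclast markers were at 0 in all P22 libraries. Their part in the age differences of the 10 genes was not tested.

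Within groups, some libraries lay to one side of their group mean for all 10 genes and others did not. P22 Het 3 and P22 Homo 3 were below the mean of their group for 10 of 10 genes, by 0.23 and 0.19 on the log2 scale on average, and P7 Homo 5 was above it for 10 of 10, by 0.25 on average. In P7 Het 6, by contrast, 6 of 10 genes were above the mean, and in P22 Homo 2 8 of 10 were. The share of other genes that did so was not computed. Summed over the 10 genes, P22 libraries held 189, 186 and 155 CPM in Het 1 to 3 and 225, 245 and 189 CPM in Homo 1 to 3, so the lowest Homo pool was level with the highest Het pool. Across the 12 libraries, centred on each group, the genes outside the 10 whose profile was closest to their mean were *Stom*, *Fcrls*, *Sash3*, *Wipf1* and *Unc93b1*, with root mean square differences of 0.02 to 0.06 (log2) beside a median of 0.19 over all genes. The mean profile across the 4 group means averages *C3*, which rose with age, with genes that fell or held. Its own root mean square was 0.17. The genes outside the 10 closest to that profile were *Csf1*, *Pxmp2*, *Pigh*, *Traf3ip2* and *Tbx1*, at 0.01 to 0.02 beside 0.34. These points share depth and pool and are given as a description.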

How the data were processed

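Poly A libraries of mouse cochlea, each from 4 pooled mice, were read as paired ends. Alignment to mm10 by the authors used nf-core, with STAR and Salmon among the tools in the submitters' notes. Versions, annotation and strand setting are not given in the sources used here. P22 and P7 replicates 5 to 7 are estimated counts that the authors deposited without normalization. P7 replicates 1 to 4 were deposited as whole numbers that sum to nearly the same total in each library, here treated as a rounded TPM score of unknown depth. No column was left unused (0).

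Counts were rounded, filtered (filterByExpr), scaled by TMM and tested by edgeR 4.0.16 (quasi-likelihood, R 4.3.3), each age alone and 12 libraries together for age and interaction. Rounded TPM were scaled by TMM and tested with limma 3.58.1 (trend) on log2(TPM + 1) at a mean of at least 5 TPM; fold changes on that scale understate those of low genes. All p-values were adjusted over all genes (Benjamini-Hochberg). Group levels are mean and SD. DESeq2 1.42.0, other scalings, filters, a replicate block and libraries left out were alternatives. Tests were checked on simulated data. Lengths are exon unions of GENCODE for mm10, and promoters come from RefSeq.

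The members and lists were chosen with earlier results of these data known. All members are named, with *Adgrb1*, the genes called per related list (up to 3) or cell type list (up to 3) by genotype, the 2 largest called rises and falls per list by age, and the 5 nearest profiles. *Tmem119*, *P2ry12*, *Fcrls*, *Csf1*, *Ms4a7*, *Ctss* and *Ly86* were named for their role or after their values were seen. Some genes that this rule names are not reported here.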

Additional observations from a re-analysis of the deposited data

Results flagged for a closer look

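In the P7 libraries in rounded TPM, 25 groups of 4 libraries were screened with Dixon's criterion, taking in each genotype the genes whose 4 values were not all equal and the marker sums of central glia, neutrophils and osteoclasts. In 5 groups a library stood apart. *C1qc* was 113 TPM in Homo 1 and 85 to 87 TPM in the other Homo libraries. In the Het group *C1qc* was 95 TPM in Het 3 and 106 to 107 TPM in the others. Chance meets the criterion in about 1 of 20 groups of continuous values. That rate does not apply to the remaining gaps, each of 1 TPM beside tied values, where any rounding step meets it. *Trem2* was 18 TPM in Het 4 and 17 in the other Het libraries, *Aif1* was 18 TPM in Het 2 and 17 in the others, and *C3* was 1 TPM in Homo 4 and listed at 0 in the others.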

How the results depend on the processing

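At P22 487 genes were called, with 270 to 588 when a library was left out and 1904 by adjusted p alone, and the 10 genes kept their direction in every alternative run. Of the 10 genes 1 was called, with 2 under the replicate block and by adjusted p alone, and 0 to 2 with a library left out. Correlations of same-numbered deviations ran from -0.23 to 0.08 and did not show a pairing of libraries by replicate number. In groups this small such correlations cannot exclude a pairing by litter, dissection or run, which was not tested. With the replicate block *C3* was called at P22 (0.63, edgeR adjusted p = 0.0418), 0 genes were called in rounded TPM and 2 passed in the interaction, and it changed no other call of the 10 genes. At P7 in counts DESeq2 called 48 genes against 0.

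In rounded TPM 90 genes were called (70 higher, 20 lower), 293 as deposited without scaling (284 higher, 9 lower), 977 by adjusted p alone, 0 with a mean of at least 1 TPM, with no filter or with the length trend removed, and 0 to 335 with a library left out. Of the 10 genes 0 were called, 3 by adjusted p alone and 0 to 2 with a library left out. In the interaction 5 genes passed, 173 by DESeq2 and 0 to 112 with a library left out. The cause of these shifts was not tested.

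Signs changed for differences near 0. At P7 in counts *Cd68* (0.00) became -0.0047 without a filter, -0.00029 by DESeq2 and -0.048 with the replicate block, and *C1qc* (-0.02) became 0.0146 with the length trend removed. With a library left out, values at P7 in counts ran on both sides of 0, from -0.115 to 0.0258 for *C1qc*, -0.159 to 0.0629 for *Cx3cr1*, -0.0683 to 0.0940 for *C1qb*, -0.158 to 0.127 for *Csf1r*, -0.0364 to 0.119 for *Aif1*, -0.109 to 0.224 for *Tyrobp* and -0.260 to 0.223 for *Cd68*. In rounded TPM *Csf1r* became 0.0242 as deposited, and *Cd68* ran from -0.152 to 0.152 with a library left out. By age *C1qa* became 0.173 and *C1qb* 0.0688 in Homo libraries alone, and *C1qa* ran from -0.0600 to 0.0316 with a library left out. In the interaction *C3* ran from -0.683 to 0.243, the highest without P7 Homo 5. Depth limits *C3* at P7, and rounding limits genes of a few TPM.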
